A study of Mus musculus with 15 samples.

Results

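Integrins are the receptors through which cells hold on to the matrix around them, and laminins are the main adhesive proteins of the basement membrane. The 34 genes described here encode 16 integrin alpha subunits, 8 integrin beta subunits and 10 laminin chains. They were chosen by name, as the rows of 2 gene count tables whose gene symbol is on the list, and all 34 were found among 53689 named records in the first table and 53618 in the second. The rows were picked by name only, but the list itself was drawn up with earlier results of these data known.

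RNA sequencing reads were counted per gene in 15 libraries of cultured mouse small cell lung cancer lines. The first table (set 1) holds 4 lung lines of the RPM genotype (CMV_426, CMV_427, CMV_428 and CMV_429) and 3 lung lines of the RPMS genotype (CMV_228, CMV_231 and CMV_252). In the second table (set 2) are 4 lung lines, all RPMS (CMV_228, CMV_231, CMV_232 and CMV_252), and 4 RPMS lines from the liver (CMV_273, CMV_341, CMV_343 and CMV_344). Every line carries MYC and is Rb1-/- and Trp53-/-, which is the whole RPM genotype, and RPMS adds STAT3-/- to it. The labels give no driver for the deletions and no age of the animals, and they call the cells lung epithelium in every library, including those from the liver. They do not say whether lines came from separate animals, so the p-values measure the spread between these libraries only. Values below are counts scaled to the TMM-adjusted library size (CPM), always in the line order given above.

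An integrin is a pair of 1 alpha and 1 beta subunit, and the pairing sets the ligand. Pairs with the beta subunit Itgb1 bind collagens, fibronectin or laminins according to their alpha partner, pairs with Itgav bind fibronectin, vitronectin and latent TGF-beta, and pairs with Itgb2 are made by leukocytes. A laminin is a trimer of 1 alpha, 1 beta and 1 gamma chain, which assembles with type IV collagen, nidogens and perlecan into the basement membrane that underlies lung epithelium.

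Libraries held 25344949 to 31345631 counts in set 1 and 9453715 to 18451248 in set 2, where line CMV_344 had the fewest. Stat3 stood at 160 to 209 CPM in the RPM libraries, at 7.83 to 19.0 CPM in the RPMS libraries of set 1 and at 11.2 to 28.5 CPM in those of set 2, in the direction of the labels. The cultures differed in more than Stat3. Of 19 leukocyte markers 2 were at 0 in each RPM library and 13 to 15 were at 0 in each RPMS library of set 1, with summed levels of 3730 to 17555 CPM and 6.39 to 125 CPM, and Ptprc, Adgre1 and Spi1 had no counts in any RPMS library there. The 10 neuroendocrine markers of small cell lung cancer summed to between 14.8 and 61.2 CPM in RPM, and to between 940 and 3512 CPM in RPMS. The summed alveolar and airway epithelium markers ranged from 142 to 1385 CPM over the RPM libraries and from 91.8 to 156 CPM over the RPMS libraries, with the airway marker Scgb1a1 at 0 in both groups. In these bulk libraries fewer cells of a type and less RNA per cell cannot be told apart, and the loss of Stat3 and the unlike cell content of the cultures cannot be told apart as sources of a difference. For the results below, the part played by these differences was not tested unless a value is given.

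The first comparison, RPMS against RPM lung lines, asks how integrin and laminin expression differed with Stat3 deleted. Integrin and laminin genes were lower in the RPMS lines or did not pass the test, and none was higher. Of the 34 genes, 25 passed the filter on low counts, and 13 of these were lower in RPMS by edgeR's quasi-likelihood test at an adjusted p under 0.05. Over all 17654 genes tested, 15.7% were lower and 14.9% were higher. The 13 were 6 of 12 alpha subunits, 3 of 7 beta subunits and 4 of 6 laminin chains tested. The median log2 fold change of the 25 genes was -3.59 (-0.01 over all genes tested), and it was the same with Itga2, which had no RPMS counts, set at its bound. In 14 of the 25 genes every RPMS library lay below every RPM library, which was the case for 21.9% of all genes tested. The count of lower genes was 7 without RPMS line CMV_228, 7 without RPMS line CMV_231 and 16 without RPMS line CMV_252. All genes called, in either direction, numbered 2896, 3103 and 7076 in those fits, against 5403 with every library.

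**Figure D1:**
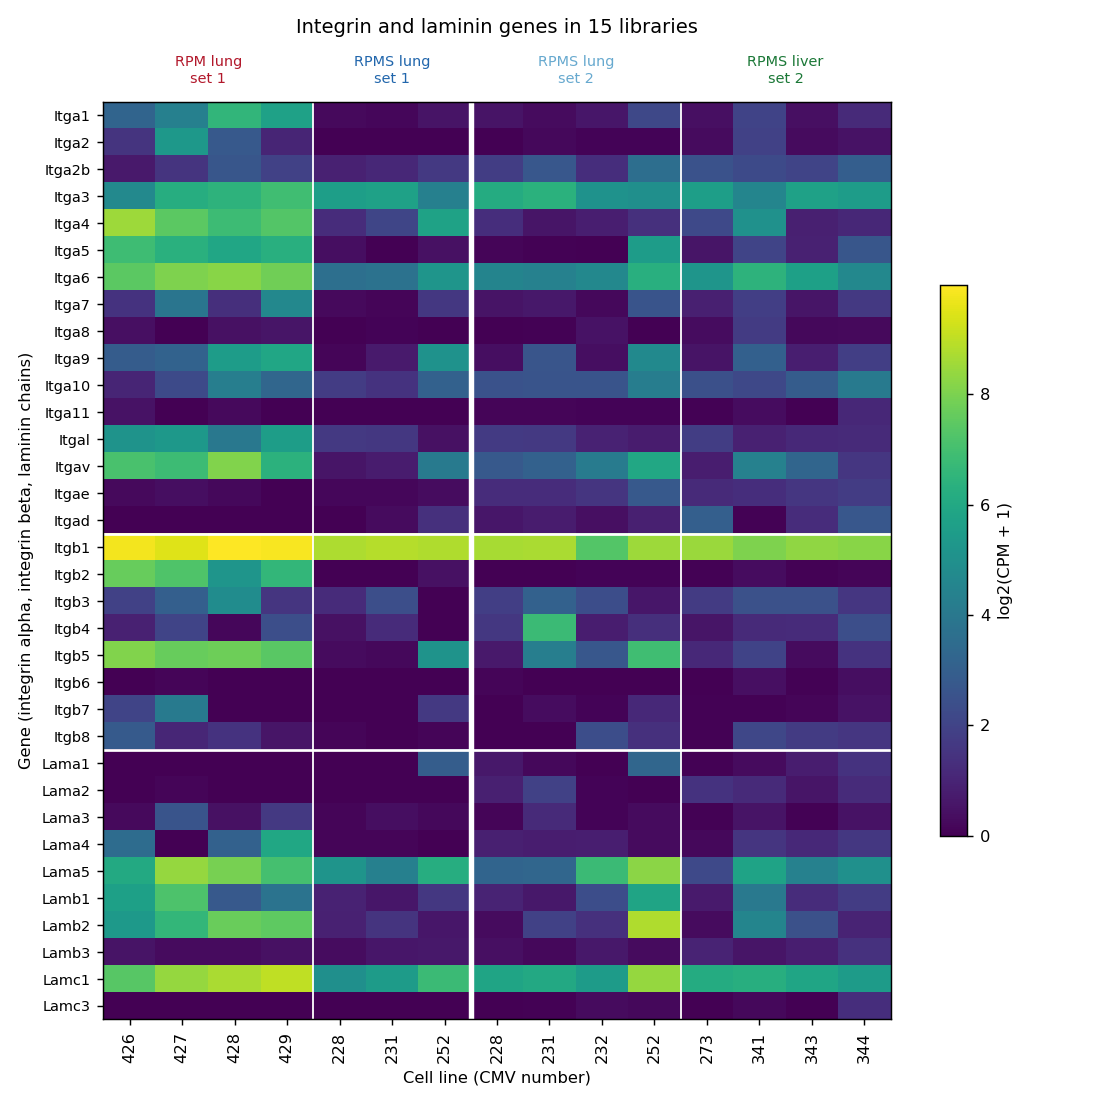
Expression of the 34 integrin and laminin genes (rows) in 15 libraries (columns, by line number), as log2(CPM + 1) with TMM-scaled CPM; white lines separate the gene classes and the groups. Itgb1 is the brightest row in every group, the RPM block is brighter than the RPMS block of set 1 for most detected genes, and line CMV_252 of set 2 is brighter than its neighbours for Lamb2, Lamc1 and Itga5.

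Among the fibronectin receptors, Itga5 (chromosome 15, 103344286 to 103366763, GRCm38), the alpha subunit of the classical fibronectin receptor, was at 115, 80.2, 59.5 and 77.5 CPM in the RPM lines and at 0.276, 0 and 0.363 CPM in the RPMS lines. It was high in all 4 RPM libraries and close to the detection limit in all 3 RPMS libraries. Itga5 fell by 8.57 on the log2 scale (SE 1.01, adjusted p = 0.00265), with -9.18 without RPMS line CMV_252. Itgav (chromosome 2, 83724397 to 83806916), the alpha subunit shared by the vitronectin and TGF-beta-activating integrins, was at 137, 113, 268 and 84.1 CPM in RPM and at 0.461, 0.698 and 16.3 CPM in RPMS. The groups did not overlap, but line CMV_252 stood far above the other RPMS lines. Itgav fell by 4.69 on the log2 scale (SE 1.42, adjusted p = 0.0444), and without RPMS line CMV_252 the value was -8.02 (adjusted p = 0.00299). That call was lost when any library other than RPMS line CMV_252 was left out: the adjusted p was 0.0725, 0.0752, 0.0808 and 0.0641 without RPM lines CMV_426 to CMV_429, 0.0881 without RPMS line CMV_228 and 0.101 without RPMS line CMV_231. The exons of Itgav share 634 bases with Gm13684 on the other strand, and the strand setting of the counting is not given in the sources used here.

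Itga4 (chromosome 2, 79255426 to 79333123), which binds VCAM1 and fibronectin and is prominent on leukocytes, was at 361, 175, 112 and 159 CPM in RPM and at 1.38, 3.24 and 52.8 CPM in RPMS. All RPMS values lay below all RPM values, and line CMV_252 was again the high one. The log2 fold change of -3.40 (SE 1.31) did not pass (adjusted p = 0.0899). Without RPMS line CMV_252 it was -6.46 with an adjusted p of 0.00471, and the exons of Itga4 share 1124 bases with Cerkl on the other strand. Itga9, a tenascin and VCAM1 receptor subunit, was at 6.54, 7.82, 44.4 and 59.0 CPM in RPM and at 0.092, 0.635 and 33.1 CPM in RPMS. Line CMV_252 lay within the RPM range, and the other RPMS lines lay below it. For Itga9 the log2 fold change was -1.39 (adjusted p = 0.583), and it was -6.33 without RPMS line CMV_252 (adjusted p = 0.0292).

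The collagen receptor subunits Itga1 and Itga2, whose genes lie close together on chromosome 13, were lower. Itga1 (114953096 to 115101964) was at 8.23, 19.3, 92.5 and 51.1 CPM in RPM and at 0.184, 0.127 and 0.423 CPM in RPMS. The RPM lines spread widely, yet the lowest of them stood well above every RPMS line. Itga1 fell by 7.42 on the log2 scale (SE 1.15, adjusted p = 0.00515), and 685 of its exon bases are shared with Gm49395 on the same strand. Its log2 fold change was -6.72 without RPM line CMV_428 and -8.07 without RPMS line CMV_252. Its neighbour Itga2 (114833081 to 114932100), was at 1.84, 38.8, 5.85 and 1.07 CPM in RPM and had 0 counts in all 3 RPMS libraries. Most of the RPM signal was in line CMV_427. Against a floor of 3 counts in each RPMS library, Itga2 was at least 128-fold lower (adjusted p = 0.0293), or at least 31.5-fold without RPM line CMV_427. That call was lost without RPM line CMV_428 (adjusted p = 0.0537), RPMS line CMV_228 (0.0701) or RPMS line CMV_231 (0.0684). Another collagen receptor subunit, Itga10, ranged between 1.06 and 18.04 CPM in RPM, and between 1.78 and 7.46 CPM in RPMS, with overlapping groups (adjusted p = 0.465). Of its 5186 exon bases, 1739 are shared with Gm42957 on the same strand.

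Of the laminin receptor subunits, Itga6 was lower, and Itga3 and Itga7 did not pass the test. Itga6 (chromosome 2, 71745616 to 71858416), which forms laminin receptors with Itgb1 or Itgb4, was at 177, 265, 291 and 223 CPM in RPM and at 11.5, 12.7 and 35.5 CPM in RPMS. It was lower in every RPMS line but well detected in each of them. Itga6 fell by 3.59 on the log2 scale (SE 0.49, adjusted p = 0.00380), with -4.31 without RPMS line CMV_252. Itga3 (chromosome 11, 95044474 to 95076801), whose pair with Itgb1 is the other main epithelial laminin receptor, was at 24.5, 72.3, 85.7 and 121 CPM in RPM and at 47.0, 50.7 and 19.4 CPM in RPMS. The groups overlapped, since RPM line CMV_426 lay below 2 of the 3 RPMS lines. The log2 fold change was -0.96 (SE 0.57, adjusted p = 0.246), and whether Itga3 and Itga6 differ in their change was not tested. Itga7, a laminin receptor subunit best known from muscle, was at 1.72, 13.7, 1.56 and 23.9 CPM in RPM and at 0.184, 0.095 and 2.09 CPM in RPMS. RPMS line CMV_252 lay above the 2 lower RPM lines. For Itga7 the log2 fold change was -3.69 (adjusted p = 0.112), with -6.15 once RPMS line CMV_252 was left out (adjusted p = 0.0380).

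Of the leukocyte integrin genes, Itgb2 and Itgal were lower. Itgb2 (chromosome 10, 77530252 to 77565708), the beta subunit of the leukocyte integrins, was at 203, 151, 35.8 and 95.5 CPM in RPM and at 0, 0 and 0.363 CPM in RPMS. It fell by 9.90 on the log2 scale (SE 1.48, adjusted p = 0.00477). Its partner Itgal (chromosome 7, 127296260 to 127335138), which makes up the T cell and myeloid receptor for ICAM proteins, was at 34.3, 38.6, 14.99 and 45.5 CPM in RPM and at 2.15, 2.03 and 0.363 CPM in RPMS. Itgal fell by 4.46 (SE 0.76, adjusted p = 0.00703), and the groups did not overlap for either gene. The RPMS counts of Itgb2 were all in line CMV_252. The order of the RPM lines for Itgb2, with CMV_426 highest and CMV_428 lowest, was also the order of their summed leukocyte markers, which were 17555, 12332, 3730 and 6157 CPM. Itgal did not follow that order, being highest in CMV_429, whereas Itga4 and Itga5 did. Whether any of these genes went with the markers was not tested. Itgb7, a lymphocyte beta subunit, reached 16.1 CPM in RPM line CMV_427 and was at 0 in 2 RPM and 2 RPMS libraries (adjusted p = 0.473). The other leukocyte subunits, Itgae and Itgad, were under the filter, at no more than 0.299 CPM and 1.63 CPM.

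Of the broadly used beta subunits, Itgb1 (chromosome 8, 128685654 to 128733200), the common partner of most alpha subunits, was at 879, 709, 1003 and 933 CPM in RPM. In RPMS it averaged 444 ± 15.4 CPM (SD, n = 3), with 460 and 443 CPM in CMV_231 and CMV_252 and the lowest value in CMV_228. It remained abundant in every line, and the RPMS lines lay close together below the RPM range. Itgb1 fell by 0.99 on the log2 scale (SE 0.17, adjusted p = 0.00770), the smallest change among the 13 genes that passed. Itgb5 (chromosome 16, 33829665 to 33949338), which pairs with Itgav in a vitronectin receptor, was at 267, 200, 220 and 168 CPM in RPM and at 0.215, 0.159 and 34.1 CPM in RPMS. All RPM lines were high, 2 RPMS lines were near the detection limit and line CMV_252 lay between. The log2 fold change was -4.22 (SE 1.80, adjusted p = 0.119). Leaving out RPMS line CMV_252 placed Itgb5 past the threshold, at -10.13 (adjusted p = 0.000863).

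Itgb8, which pairs with Itgav and activates TGF-beta, was at 6.03, 1.12, 1.72 and 0.476 CPM in RPM and at 0.092, 0 and 0.091 CPM in RPMS. It was a weakly expressed gene whose groups did not overlap. Itgb8 fell by 5.16 (SE 1.29, adjusted p = 0.0241), but no longer passed without any 1 of the 3 RPMS lines (adjusted p = 0.0817, 0.0658 and 0.0501 without CMV_228, CMV_231 and CMV_252). Without RPM line CMV_426 its change was -4.06. Itgb3, the beta subunit of the platelet fibrinogen receptor and of a vitronectin receptor, was at 2.78, 7.19, 28.1 and 1.94 CPM in RPM and at 1.35, 4.25 and 0 CPM in RPMS. The groups overlapped (log2 fold change -2.42, adjusted p = 0.305). Itgb4, the hemidesmosome partner of Itga6, and Itga2b, the platelet partner of Itgb3, averaged under 3 CPM in both groups and did not pass (adjusted p = 0.391 and 0.393).

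**Figure D2:**
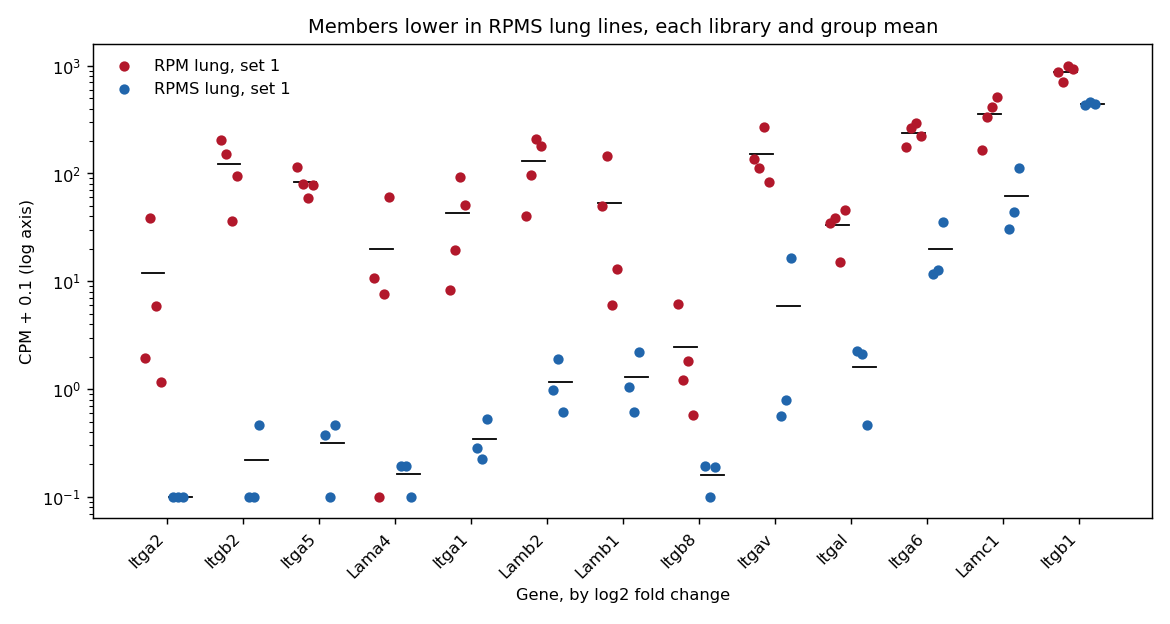
CPM + 0.1 on a log axis for the 13 integrin and laminin genes lower in RPMS lung, in each library of set 1 (points) with the group mean (lines); points at the bottom have 0 counts. Lama4 is the one gene of the 13 whose groups overlap, through RPM line CMV_427 at 0, and Itgb1 has the smallest distance between groups, 709 to 1003 CPM in RPM against a mean of 444 CPM in RPMS.

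Laminin chains of all 3 classes were among the lower genes. The alpha class was so through Lama4 alone, whose groups overlapped and whose call was lost when any 1 RPMS line was left out. Lamc1 (chromosome 1, 153218922 to 153332786), the gamma chain of most laminins, was at 166, 334, 414 and 513 CPM in RPM and at 30.6, 43.9 and 111 CPM in RPMS. The groups did not overlap, and every RPMS line still had Lamc1 at 30.6 CPM or more. It fell by 2.53 on the log2 scale (SE 0.58, adjusted p = 0.0187), and the call was lost without RPMS line CMV_228 (0.0602) or CMV_231 (0.0733), while without CMV_252 the change was -3.27. Both common beta chains fell to 2.09 CPM or less in every RPMS library of set 1. In the set 2 library of line CMV_252, Lamb2 was at 434 CPM and Lamb1 at 56.2 CPM. Lamb2 (chromosome 9, 108479736 to 108490530) was at 40.2, 96.0, 208 and 178 CPM in RPM and at 0.891, 1.81 and 0.514 CPM in RPMS. It fell by 6.93 (SE 0.85, adjusted p = 0.00289), with -7.52 without RPMS line CMV_231. Lamb1 (chromosome 12, 31265234 to 31329644) was at 49.7, 144, 5.93 and 13.0 CPM in RPM and at 0.952, 0.508 and 2.09 CPM in RPMS. The RPM lines with most Lamb1, CMV_426 and CMV_427, were those with least Lamb2. Lamb1 fell by 5.49 (SE 1.35, adjusted p = 0.0229), and its call was lost without RPMS line CMV_228 (0.0884) or CMV_231 (0.0833). Its change was -4.25 without RPM line CMV_427 and -6.19 without RPMS line CMV_252.

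Of the alpha chains, Lama5 (chromosome 2, 180176373 to 180225859), the alpha chain of adult lung epithelium and vessels, was at 65.3, 336, 243 and 131 CPM in RPM and at 34.5, 19.0 and 73.8 CPM in RPMS. RPMS line CMV_252 lay above RPM line CMV_426, so the groups overlapped. Its log2 fold change of -2.19 (SE 0.70) did not pass (adjusted p = 0.0516), but it did without RPM line CMV_426 (-2.46, adjusted p = 0.0314) or RPMS line CMV_252 (-2.86, adjusted p = 0.0340). Lama4, an alpha chain of endothelial and mesenchymal basement membranes, was at 10.5, 0, 7.58 and 60.8 CPM in RPM and at 0.092, 0.095 and 0 CPM in RPMS. RPM line CMV_427 had none, and most of the signal was in CMV_429. Lama4 fell by 8.21 (SE 2.49, adjusted p = 0.0450), but did not pass without RPMS line CMV_228 (0.133), CMV_231 (0.128) or CMV_252 (0.0957). The RPM lines also differed in 12 fibroblast and stellate cell markers, which summed to 206, 24.1, 254 and 729 CPM, with the lowest sum in CMV_427 and the highest in CMV_429. In RPMS these markers summed to 8.85 to 17.5 CPM, where Acta2, Col3a1, Dcn, Lum and Mgp had no counts. Of the 10 fibroblast and stellate cell markers tested, 6 were lower in RPMS, 3 did not pass and 1 was higher, which was Thy1 at 5.05 CPM in RPMS against 0.058 CPM in RPM (adjusted p = 0.00755). The 8 endothelium markers summed to 103, 77.2, 432 and 34.7 CPM in RPM, with the highest sum in CMV_428 and the lowest in CMV_429. In RPMS they summed to between 0.737 and 14.6 CPM. Of the 4 tested, Flt1 was lower (44.0 and 0.383 CPM, adjusted p = 0.0342), and Kdr (96.3 and 1.00 CPM), Vwf (20.1 and 4.67 CPM) and Pecam1 (0.722 and 0.350 CPM) did not pass. Cdh5, under the filter, averaged 0.275 CPM in RPM and had no counts in RPMS.

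Lamb3, a chain of the epidermal laminin, was under 1 CPM in every library of set 1. It was the one tested gene of the 25 with a positive log2 fold change (0.49, adjusted p = 0.448). The 9 genes under the filter in set 1 were Itga8, Itga11, Itgae, Itgad, Itgb6, Lama1, Lama2, Lama3 and Lamc3. They reached at most 6.65 CPM in any library, a value of Lama1, a chain of embryonic basement membranes, in RPMS line CMV_252. Lama1 had 0 counts in the other 6 libraries, and Lamc3 had 0 counts in all 7.

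**Figure D3:**
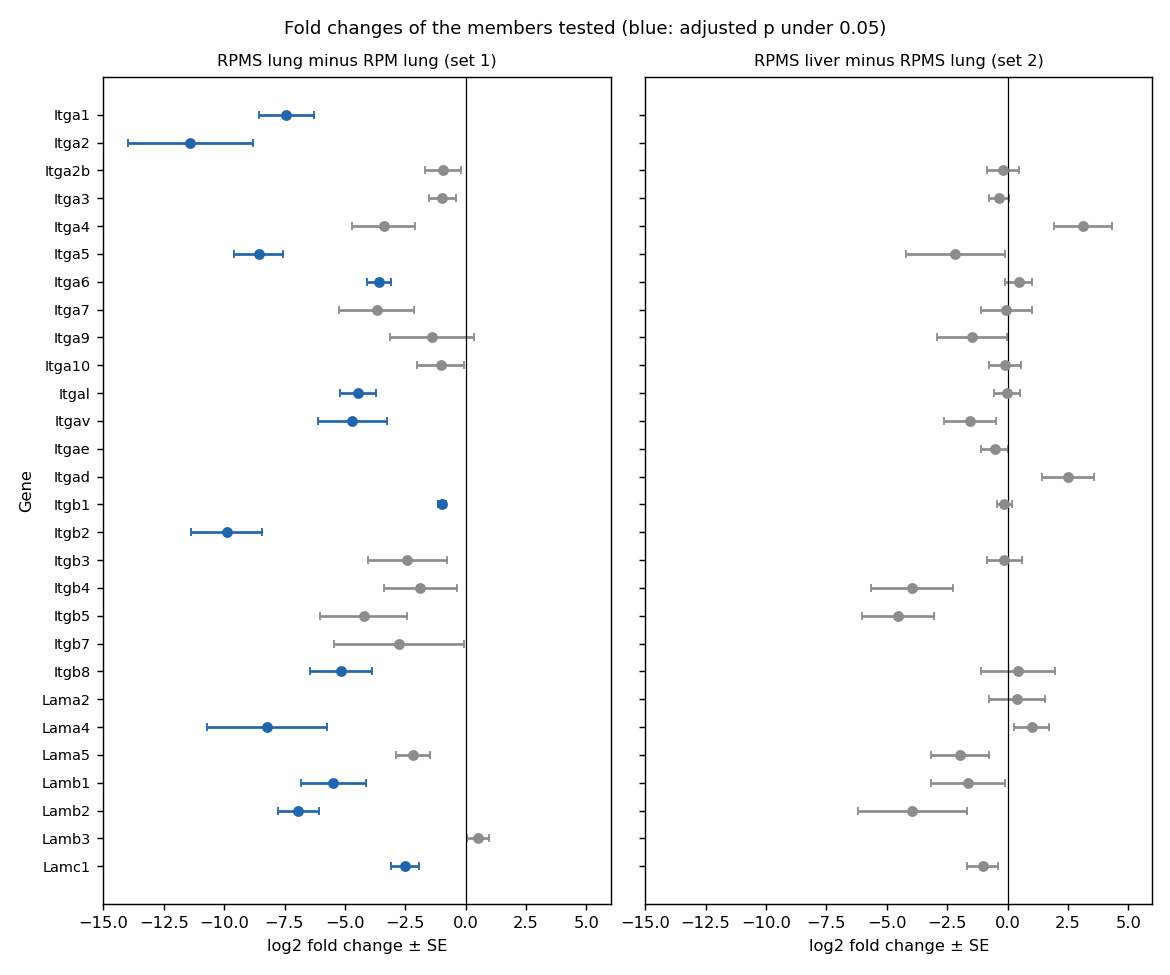
Log2 fold changes of the integrin and laminin genes tested (points, with SE as bars) for RPMS lung minus RPM lung in set 1 (left) and RPMS liver minus RPMS lung in set 2 (right); blue marks an adjusted p under 0.05. All but Lamb3 of the 25 genes on the left are below 0 and 13 are blue, whereas 17 of the 23 on the right are below 0 and none is blue; the fitted value of Itga2, with 0 counts in RPMS, is no bound.

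Promoters were searched for TTCNNNGAA, the letters of the STAT core motif, since Stat3 is the gene deleted between the groups. RefSeq promoter windows of GRCm38.p6, from 250 bases before to 50 bases after the start, matched 21 of the 34 genes. Of these, 2 held the motif, against 9.55% of 27025 genes. One was among the 8 matched genes that were lower in RPMS, Lamb2, and one among the 13 others, Itga10. The motif reads the same on both strands, and the stricter TTCCNGGAA, which it includes, was found for 0 of these 21 genes, against 1.35% of all genes. The stretches that hold the motif are shown because they are the only matches among these 21 genes, with the motif in capitals, on the plus strand at chr9:108479612-108479731 for Lamb2 and at chr3:96645334-96645453 for Itga10.
Lamb2: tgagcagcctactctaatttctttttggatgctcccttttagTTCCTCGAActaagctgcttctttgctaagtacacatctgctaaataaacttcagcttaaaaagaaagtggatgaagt
Itga10: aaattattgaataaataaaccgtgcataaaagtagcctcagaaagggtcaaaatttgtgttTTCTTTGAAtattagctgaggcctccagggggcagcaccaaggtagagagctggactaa
The motif began 208 bases before the RefSeq start of Lamb2 (108479862), which was lower in RPMS, and 189 bases before that of Itga10 (96645584), whose groups overlapped. The GENCODE start of Lamb2 given above lies upstream of its RefSeq start. A match describes these letters only.

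Levels of different genes were compared per kilobase of exon (CPM per kb), a choice made after the values were seen, so the shares that follow are descriptions without a test. Itgb1 had the highest CPM per kb of the 34 genes in each group mean, at 216 in RPM and 109 in RPMS of set 1. Next in RPM were Itgb5 at 60.2, Lamc1 at 43.1 and Itgb2 at 39.7 CPM per kb, and next in RPMS were Lamc1 at 7.49 and Itga3 at 6.84 CPM per kb. Itgb1 made up 60.0% to 75.8% of the summed beta subunit level in the RPM lines and 91.2% to 99.7% in the RPMS lines. Thus its share of the beta level was higher in every RPMS line of set 1 although its own CPM was lower.

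Itga3 made up 4.60%, 13.0%, 13.5% and 20.5% of the summed alpha subunit level in the RPM lines. It made up 76.7%, 76.3% and 17.3% in the RPMS lines. The leading alpha subunit per kb was Itga4 in RPM line CMV_426, Itga6 in the other RPM lines, Itga3 in RPMS lines CMV_228 and CMV_231, and Itga9 in RPMS line CMV_252, which thus differed from the other RPMS lines. Among laminins, the summed beta chains stood at 0.582, 0.752, 0.696 and 0.494 of the gamma chains in RPM. That ratio was 0.0756, 0.0810 and 0.0280 in RPMS, so beta chains were scarce beside gamma chains in all 3 RPMS libraries of set 1. Lama5 was 68.7% to 98.4% of the laminin alpha level in RPM and 90.2% to 99.5% in RPMS.

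**Figure D4:**
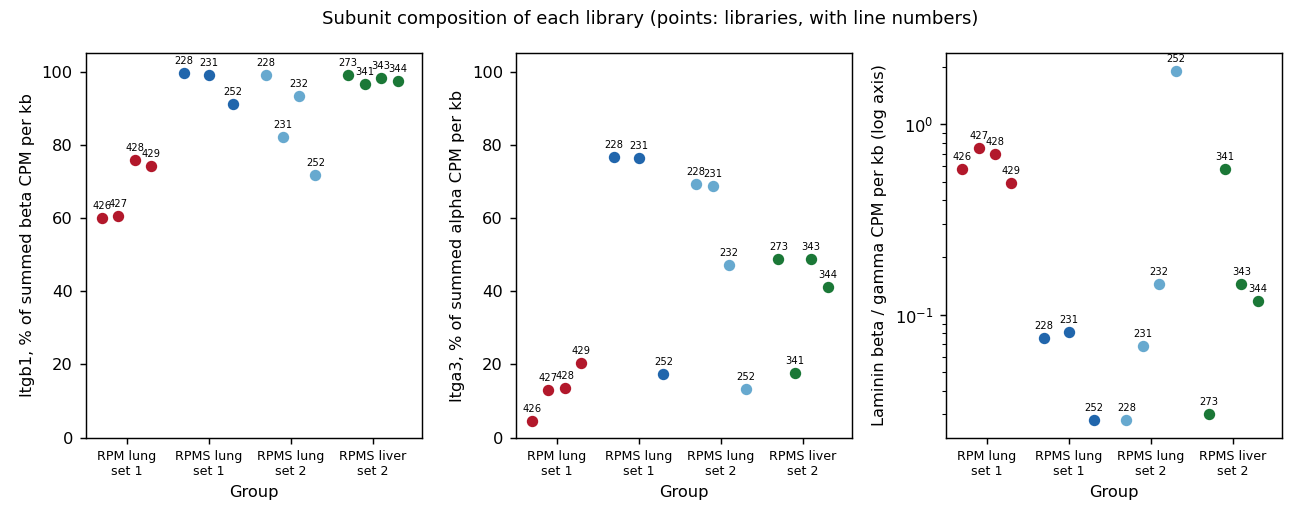
Share of Itgb1 in the summed integrin beta level (left) and of Itga3 in the summed integrin alpha level (middle), in percent of CPM per kb, and ratio of laminin beta to gamma chains on a log axis (right), in each library with its line number. RPMS lines of set 1 lie at 91.2% or more on the left and at 0.0810 or less on the right; line CMV_252 of set 2 is the lowest RPMS library on the left and in the middle and the highest library on the right.

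Genes that work with integrins and laminins were read from 4 lists. Of 30 tested genes of integrin activation and focal adhesion, 15 were lower, 1 was higher and 14 did not pass, with a median log2 fold change of -1.55 (-0.01 over all genes tested, of which 15.7% were lower). The largest changes were in Dock1, a Rac activator (mean ± SD of 49.2 ± 24.2 CPM in RPM against 0.166 ± 0.113 CPM in RPMS, a change of -8.18 on the log2 scale), in Ptk2b, the kinase PYK2 (72.3 ± 30.0 and 0.296 ± 0.513 CPM; -7.92), and in Parvg, a blood cell parvin (117 ± 49.4 and 0.546 ± 0.455 CPM; -7.73). Their adjusted p-values were 0.00171, 0.0123 and 0.00206. Their changes were -8.79 for Dock1 without RPMS line CMV_231, and -7.33 for Ptk2b and -8.59 for Parvg without CMV_228; the RPMS counts of Ptk2b were all in CMV_231. The gene that rose, named after its values were seen, was Bcar1, a Src substrate scaffold, from 19.2 ± 5.76 to 74.4 ± 35.7 CPM (log2 fold change 1.95, adjusted p = 0.0171). The call of Bcar1 was lost without RPMS line CMV_228 (0.0655) or CMV_231 (0.0643). The kinase gene Ptk2 stood at 87.7 ± 29.5 and 107 ± 4.28 CPM (adjusted p = 0.461), also named after its values were seen.

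Of 16 tested partners of laminins in the basement membrane, 3 were lower, 1 was higher and 12 did not pass (median -0.27), a share of lower genes close to the 15.7% over all genes tested. Col4a5, a type IV collagen chain, fell from 164 ± 129 to 0.238 ± 0.231 CPM (log2 fold change -9.41, adjusted p = 0.00473, with -10.30 without RPMS line CMV_228). Nid2, a nidogen that links laminin to collagen, had 12.3 ± 9.42 CPM in RPM and 2 counts over all RPMS libraries (adjusted p = 0.00539). Sgce, a sarcoglycan of the dystroglycan complex, rose from 6.99 ± 4.48 to 34.8 ± 10.9 CPM (log2 fold change 2.31, adjusted p = 0.0229), but did not pass without RPMS line CMV_228 (0.0567) or CMV_231 (0.0818). Without RPMS line CMV_252 this list had 6 lower and 2 higher genes, and without RPM line CMV_427 it had 5 lower.

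Of 20 tested other integrin ligands, 11 were lower, 1 was higher and 8 did not pass, where 15.7% of all genes tested were lower. Their median was -4.42, or -4.21 with the genes without RPMS counts at their bounds. Spp1, the secreted ligand osteopontin, averaged 4151 ± 5177 CPM in RPM against 0.454 ± 0.172 CPM in RPMS (log2 fold change -13.15, adjusted p = 0.00268, with -11.73 without RPM line CMV_427). Tnc, tenascin C, and Vcam1, the ligand of Itga4, had 0 counts in RPMS and were at least 415-fold and 112-fold lower (adjusted p = 0.0296 and 0.0459). The bound for Tnc was 88.7-fold without RPM line CMV_427, and that for Vcam1 was 21.9-fold without RPM line CMV_426. The call of Tnc was lost without RPM line CMV_426 (0.0516), RPMS line CMV_228 (0.0713), CMV_231 (0.0698) or CMV_252 (0.0517). That of Vcam1 was lost without RPM line CMV_427 (0.0578) or CMV_429 (0.0797), or RPMS line CMV_228 (0.102), CMV_231 (0.0991) or CMV_252 (0.0752). Jam3, a junctional adhesion molecule named after its values were seen, rose from 6.57 ± 3.15 to 34.3 ± 17.2 CPM (log2 fold change 2.38, adjusted p = 0.0130). Without RPMS line CMV_228 the list had 7 lower genes.

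Of 14 tested membrane partners of integrins, 7 were lower, 0 higher and 7 did not pass (median -2.01), where 15.7% of all genes tested were lower. Cav1, which forms caveolae, fell from 33.9 ± 24.0 to 0.101 ± 0.106 CPM (log2 fold change -8.31, adjusted p = 0.00467). The hyaluronan receptor gene Cd44 fell from 340.8 ± 110 to 3.29 ± 4.45 CPM (-6.69, adjusted p = 0.00764), and Plaur, the urokinase receptor, from 33.1 ± 19.8 to 1.28 ± 1.98 CPM (-4.68, adjusted p = 0.0391). The call of Plaur was lost without any 1 library except RPMS line CMV_252, with adjusted p-values of 0.0584 to 0.0933. Without CMV_252 the changes of Cav1, Cd44 and Plaur were -9.38, -8.89 and -7.84. In these 4 lists too, lower genes include ones that leukocytes and fibroblasts express, and the share of those cells in each result was not tested.

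The second comparison, liver against lung among the RPMS lines of set 2, asks whether the site of origin went with a difference. Of the 34 genes, 23 passed the filter, and 0 of these were past the threshold in edgeR (lowest adjusted p = 0.945). Of all 14441 genes tested, 0% were called, and 4.50% had an unadjusted p under 0.05, as did 4 of the 23. DESeq2 called 1 of the 23, and limma-voom called 0. In none of the 23 did the groups fail to overlap, where 1.36% of all genes tested lay wholly higher and 1.20% wholly lower in liver. The median log2 fold change of the 23 was -0.18 (-0.02 over all genes tested), and 0 genes passed in any of the 4 lists. A p that misses the threshold does not show that the groups are alike.

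The genes with an unadjusted p under 0.05 were Itga4, Itgad, Itgb4 and Itgb5. Itga4 was at 1.47, 0.489, 0.801 and 1.61 CPM in the lung lines and at 3.63, 32.4, 0.851 and 1.17 CPM in the liver lines, so line CMV_341 carried the difference. Itgad, a leukocyte alpha subunit, was at 0.508, 0.706, 0.343 and 0.845 CPM in lung and at 6.997, 0.053, 1.38 and 5.45 CPM in liver, where 3 of the 4 liver lines were above every lung line. The exons of Itgad share 330 bases with the pseudogene Gm17831 on the same strand. On the other strand they share 388 bases with 4931431B13Rik, 102 with Gm39091 and 70 with Cox6a2. Itgb4 was at 2.03, 109, 0.744 and 1.54 CPM in lung and at 0.488, 1.28, 1.33 and 4.28 CPM in liver, with line CMV_231 alone high. The exons of Itgb4 share 537 bases with B230344G16Rik on the other strand, so that reads of the 2 genes may not be told apart. Without line CMV_231 the log2 fold change of Itgb4 turned from -3.96 to 0.34.

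Itgb5 was at 0.621, 18.4, 5.495 and 121 CPM in lung and at 1.25, 2.995, 0.213 and 1.75 CPM in liver. Lung lines reached higher values, but line CMV_228 lay within the liver range. The log2 fold change was -4.54 (SE 1.497, edgeR adjusted p = 0.945, unadjusted p = 0.0149), and -2.41 without lung line CMV_252. It was the one gene that DESeq2 called (adjusted p = 0.0415).

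Itgb1, with the highest mean CPM of the 34 genes in both sites, was at 408, 412, 157 and 363 CPM in lung and at 353, 262, 321 and 292 CPM in liver (log2 fold change -0.13, SE 0.30, adjusted p = 0.979). Line CMV_232 was the low one, and the liver lines fell within the lung range. Itga3 was at 69.1, 82.0, 32.5 and 30.3 CPM in lung and at 46.9, 22.5, 51.9 and 45.1 CPM in liver (-0.36, SE 0.40, adjusted p = 0.950). Itga6 was at 21.9, 19.97, 24.5 and 76.8 CPM in lung and at 36.1, 87.2, 49.3 and 24.1 CPM in liver (0.46, SE 0.55, adjusted p = 0.953). For both genes the groups overlapped, and different lines were high in each.

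Among the lung lines of set 2, CMV_252 had the most Lamb2, Lamb1, Lamc1 and Itga5. Lamb2 was at 0.226, 2.77, 1.60 and 434 CPM in lung and at 0.217, 22.5, 4.52 and 0.973 CPM in liver. Its log2 fold change was -3.95 (adjusted p = 0.945), and 2.19 without line CMV_252. Lamb1 was at 1.02, 0.543, 4.18 and 56.2 CPM in lung and at 0.651, 15.4, 1.38 and 2.43 CPM in liver, and its log2 fold change went from -1.63 to 1.38 without that line. Lamb1 and Lamb2 were thus highest in the same library of each site, CMV_252 in lung and CMV_341 in liver. Lamc1 was at 56.2, 64.5, 43.9 and 334 CPM in lung and at 68.7, 75.7, 57.6 and 44.0 CPM in liver (-1.02, or 0.17 without CMV_252). Itga5 was at 0.113, 0.054, 0 and 44.2 CPM in lung and at 0.488, 3.16, 0.904 and 5.35 CPM in liver (-2.17, or 5.29 without CMV_252). Without line CMV_252, Itga5 had an edgeR adjusted p of 0.835. The remaining lung lines had 2, 1 and 0 counts of Itga5, all under the floor of 3 counts.

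Itgav was at 5.87, 7.65, 16.7 and 61.8 CPM in lung and at 0.759, 19.9, 8.56 and 1.95 CPM in liver, and Lama5 at 8.30, 8.74, 109 and 300.1 CPM in lung and 3.58, 54.0, 20.1 and 30.8 CPM in liver. Neither passed (adjusted p = 0.945 for both), and the groups overlapped. The 11 genes under the filter in set 2 reached at most 8.91 CPM, again Lama1 in line CMV_252. Itgb2 was among them, at up to 0.267 CPM, and the 19 leukocyte markers summed to 8.45 to 16.9 CPM in lung and 5.91 to 14.5 CPM in liver. In the liver, line CMV_341 had the highest summed fibroblast and stellate cell markers of set 2, at 135 CPM, beside its high Itga4 and Lamb1. Lung line CMV_252 had the most Lamb1 of set 2, at 56.2 CPM, but a marker sum of 13.5 CPM. That sum was below those of liver lines CMV_343 and CMV_344, where Lamb1 was at 1.38 and 2.43 CPM. Whether Lamb1 or Itga4 went with these markers was not tested.

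Per kilobase of exon, Itgb1 was again the leading gene, with 71.8% to 99.1% of the beta level in the lung lines and 96.6% to 99.0% in the liver lines. Itga3 made up 69.2%, 68.6%, 47.2% and 13.3% of the alpha level in lung and 48.9%, 17.5%, 48.9% and 41.1% in liver. It led in all but lung line CMV_252, where Itga5 led, and liver line CMV_341, where Itga6 led. The laminin beta to gamma ratio was 0.0281, 0.0685, 0.144 and 1.91 in lung and 0.0300, 0.581, 0.144 and 0.118 in liver, so beta chains exceeded gamma chains in lung line CMV_252 alone.

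Lines CMV_228, CMV_231 and CMV_252 have a library in each table, which shows how far 1 line name fixed these genes. The tables were scaled separately, so only differences of more than 5-fold in genes that reached 10 CPM were counted. There were 0 among 5 such genes in CMV_228, 2 among 7 in CMV_231 and 5 among 14 in CMV_252. In CMV_231 they were Itgb4 (1.33 CPM in set 1 and 109 CPM in set 2) and Itgb5 (0.159 and 18.4 CPM). In CMV_252 they were Lamb2 (0.514 and 434 CPM), Itga5 (0.363 and 44.2 CPM), Lamb1 (2.09 and 56.2 CPM), Itga2b (2.15 and 11.3 CPM) and, in the other direction, Itga4 (52.8 and 1.61 CPM). The 10 neuroendocrine markers summed to 940 CPM in the set 1 library of CMV_252 and to 171 CPM in its set 2 library, against 2956 to 4391 CPM in the other lung libraries of set 2. Whether the 2 libraries labelled CMV_252 hold the same cells was not tested.

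**Figure D5:**
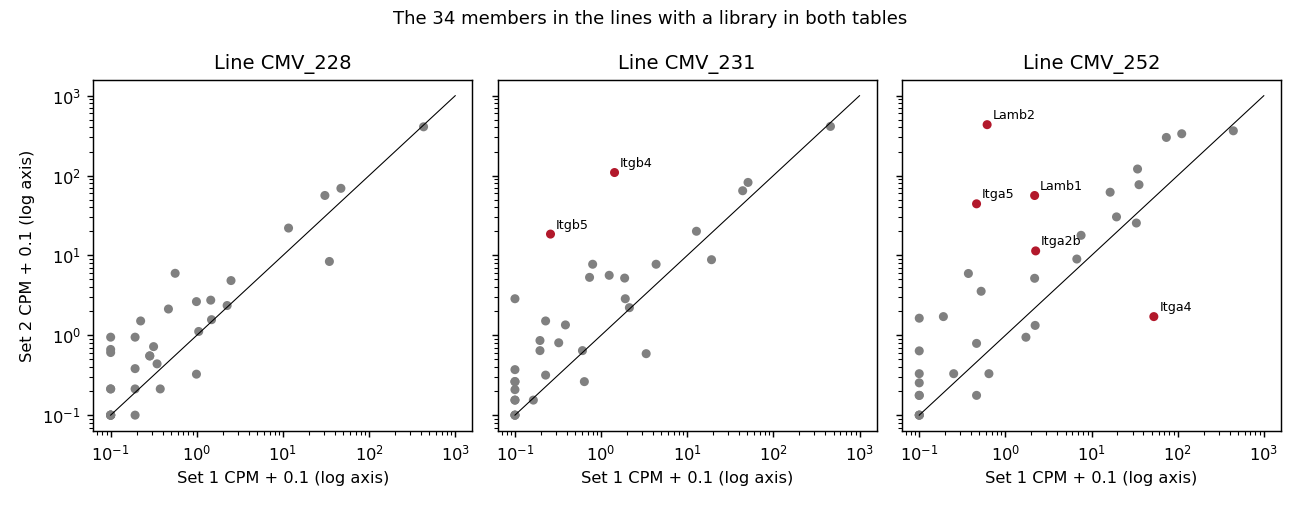
CPM + 0.1 of the 34 genes in set 1 (horizontal) and set 2 (vertical), both log axes, for the 3 lines with a library in both tables; the line marks equal values, and red points are genes that reach 10 CPM and differ more than 5-fold. CMV_228 has no red point, CMV_231 has Itgb4 and Itgb5, and CMV_252 has 5, with Lamb2 farthest from the line at 0.514 and 434 CPM.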

How the data were processed

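Both tables hold counts of reads for each gene as the authors deposited them, in whole numbers and not normalized. Per the labels' protocols, total RNA was made into libraries with a stranded kit from cells grown with little serum. The submitters' processing notes name HISAT2, StringTie and GRCm38; versions, annotation, roles and the strand setting are not given in the sources used here. Set 2 holds 1832 records without a name (0.0569% to 0.0799% of counts), which were left out.

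Counts were tested in R 4.3.3 with edgeR 4.0.16 (default expression filter, TMM factors, two-sided quasi-likelihood test) within each table, with Benjamini-Hochberg adjustment over all genes tested at 0.05. SE is the absolute log2 fold change over the square root of F. The tables were not pooled. Alternatives were DESeq2 1.42.0, limma-voom (limma 3.58.1), relative log expression factors, no filter, a 10-count minimum and leaving out each library; leaving out libraries for the pathway lists and for the bounds was chosen after seeing the data. The script was tested on simulated data, with less spread between libraries than in these data. That run checks the code and does not show how often calls hold here. No 2 libraries of a group were copies (mean chi-square per gene 48.1 to 383). A floor of 3 counts equals 0.0907 to 0.120 CPM in set 1 and 0.160 to 0.292 CPM in set 2 and covers counting error only. Exon lengths and positions came from a GENCODE annotation of GRCm38.

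The genes and lists were chosen with earlier results of these data known. Library values are printed for genes past the threshold in set 1 or with a mean of 10 CPM there, and of each pathway list the 3 called genes with the largest change and at least 10 CPM. Genes described by library in set 2, and those marked so in the text, were chosen after their values were seen.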

Additional observations from a re-analysis of the deposited data

Results flagged for a closer look

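In 71 gene and group combinations with 4 libraries, 14 held 1 library far from the other 3 by Dixon's gap-to-range criterion. Its cutoff flags about 1 in 20 when values are normally distributed and independent. Whether these CPM values meet that condition was not tested, so the 14 are a description only. Lung line CMV_252 of set 2 accounted for 10 of the 14. It was the high library for Lamb2 at 434 CPM, Lamc1 at 334 CPM, Itgb5 at 121 CPM, Itga6 at 76.8 CPM, Lamb1 at 56.2 CPM, Itga5 at 44.2 CPM, Itga10 at 17.7 CPM, Itgae at 5.84 CPM and Itga7 at 5.07 CPM. It was the low library for Lama4 at 0.230 CPM, which equals its floor of 3 counts.

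In the liver, line CMV_341 was set apart by Itga4 at 32.4 CPM, where the others had 0.851 to 3.63 CPM, and by Lamb1 at 15.4 CPM, where they had 0.651 to 2.43 CPM. Lung line CMV_231 of set 2 had Itgb4 at 109 CPM against 0.744 to 2.03 CPM. In set 1, RPM line CMV_427 had Itga2 at 38.8 CPM against 1.07 to 5.85 CPM.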

How the results depend on the processing

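The calls of Itga1, Itga5, Itga6, Itgal, Itgb1, Itgb2 and Lamb2, 7 of the 13 genes lower in RPMS, held under every alternative run. Each of these alternatives used the set 1 libraries only. In its set 2 library, which was scaled separately, RPMS line CMV_252 had Lamb2 at 434 CPM and Itga5 at 44.2 CPM. Its set 1 values were 0.514 and 0.363 CPM, so for these 2 genes the low level did not hold in both libraries of that line. Lower genes among the members numbered 17 with DESeq2, 11 without a filter and 13 with limma-voom, relative log expression factors or a 10-count minimum. Over all genes tested, 5403 were called in either direction in the main fit. That total was 7262 with DESeq2, 5700 with limma-voom, 5451 with relative log expression factors and 5412 with a 10-count minimum. Without a filter it was 4590 of 29431, where the main fit tested 17654. When 1 library was left out, the members called lower ranged from 7 to 16, and all genes called ranged from 2896 to 7076. Besides the calls lost without a library, limma-voom did not call Lama4 (adjusted p = 0.368) or Lamb1 (0.0809), and the fit without a filter did not call Lama4 (0.0678) or Itgav (0.0658); the causes were not tested. Itga4, Itga7, Itgb5 and Lama5 were called by DESeq2 (0.00718, 0.0132, 0.00991 and 0.00515), and Itga4 and Itgb5 by limma-voom (0.0145 and 0.00772).

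In the pathway lists DESeq2 called 6 basement membrane partners lower and 2 higher, 2 other ligands higher and 1 membrane partner higher. With limma-voom 2 focal adhesion genes, 3 other ligands and 1 membrane partner were higher, and Tnc (0.0506) and Vcam1 (0.0556) were lost. Without 1 library, 0 to 2 focal adhesion genes were higher, 3 to 6 basement membrane partners lower and 0 to 2 higher, and 7 to 11 other ligands lower and 1 to 2 higher.

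For liver against lung, DESeq2 called 52 genes, among them 1 member (Itgb5), and the fit without a filter called 2. Itga5 turned to 2.37 with limma-voom. Over libraries left out, log2 fold changes ranged from -4.77 to 0.34 for Itgb4, -2.86 to 5.29 for Itga5, -3.38 to 1.38 for Lamb1, -5.82 to 2.19 for Lamb2 and -1.30 to 0.17 for Lamc1. The stricter promoter motif matched 0 genes. Lama4 could not be tested without RPM lines CMV_426, CMV_428 or CMV_429. No paired analysis was possible because the groups compared share no line numbers. Genes near the floor of 3 counts are limited by depth.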
